A study of Mus musculus with 4 samples.

Results

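The classic route of bile acid synthesis and the enzymes that modify its sterol ring were followed in mouse liver nuclei through 5 genes, Cyp7a1, Cyp8b1, Hsd3b7, Akr1d1 and Akr1c6. They were taken by symbol, and all 5 were found among the 32285 gene rows of the deposited count matrices. Nuclei came from livers of mice fasted for 16 to 24 h and from livers of fed control mice, with 2 libraries in each group (fasted 1 and fasted 2, fed 1 and fed 2). Each library was a nuclear preparation from 50 mg of pooled frozen liver that stood for 8 mice, and RNA was captured with 10x chemistry 3.1. Strain, sex, age and time of day are not given in the sources used here, nor is whether the same mice gave both preparations within a group, so p-values measure the spread between preparations, which may be technical. The series asks how feeding state and insulin set where in the lobule bile acid genes are expressed.

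Hepatocytes make bile acids from cholesterol. Cyp7a1 is the cholesterol hydroxylase that opens the classic route and limits its rate. Hsd3b7 oxidises and isomerises the sterol ring after that first hydroxylation, Akr1d1 reduces a ring double bond, and Cyp8b1 adds the hydroxyl group that directs the product to cholic acid. Akr1c6 is a hydroxysteroid dehydrogenase of the aldo-keto reductase family, a family that reduces ring keto groups. Bile acids repress the route through FXR (Nr1h4) and SHP (Nr0b2) in the liver and through a gut hormone read by Fgfr4 and Klb. A liver lobule runs from portal veins, where blood enters, to a central vein, and hepatocytes near each end express different enzymes.

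In the GENCODE M21 annotation of GRCm38, Cyp7a1 lies at chr4:6265612-6275633 on the minus strand with 6 exons, and Cyp8b1 at chr9:121914356-121916305 on the minus strand with 1 exon. Hsd3b7 lies at chr7:127800604-127803802 on the plus strand, where Gm49388 overlaps it on the same strand and 9430064I24Rik on the other, and neither of these is among the gene rows of the matrices. Akr1d1 lies at chr6:37530173-37568815 on the plus strand and overlaps the pseudogene Gm7463, which has no row either. Akr1c6 lies at chr13:4434306-4457877 on the plus strand and belongs to a family of close relatives that can share reads with it. The 250 bases before the start of Cyp8b1 (chr9:121916306-121916555, minus strand), Hsd3b7 (chr7:127800359-127800608), Akr1d1 (chr6:37529923-37530172) and Akr1c6 (chr13:4434093-4434342) are shown 5′ to 3′. Whether these sequences bear on the position of expression along the lobule was not tested. They come from RefSeq on GRCm38.p6, which held 4 of the 5 genes. RefSeq's starts of Hsd3b7 and Akr1c6 lie downstream of the GENCODE starts given above, so the ends of their windows reach into the GENCODE gene. Distances are counted from the RefSeq start, and capitals mark the motif matches.
Hsd3b7: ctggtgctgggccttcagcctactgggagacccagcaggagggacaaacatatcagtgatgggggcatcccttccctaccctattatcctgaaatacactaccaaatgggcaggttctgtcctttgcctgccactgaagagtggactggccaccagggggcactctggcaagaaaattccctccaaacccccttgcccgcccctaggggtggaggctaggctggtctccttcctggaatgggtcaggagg
Akr1c6: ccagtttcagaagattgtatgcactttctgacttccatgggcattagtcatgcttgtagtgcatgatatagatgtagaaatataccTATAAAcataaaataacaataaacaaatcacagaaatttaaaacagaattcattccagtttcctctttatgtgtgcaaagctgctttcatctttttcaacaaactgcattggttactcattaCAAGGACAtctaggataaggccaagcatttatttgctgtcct
Akr1d1: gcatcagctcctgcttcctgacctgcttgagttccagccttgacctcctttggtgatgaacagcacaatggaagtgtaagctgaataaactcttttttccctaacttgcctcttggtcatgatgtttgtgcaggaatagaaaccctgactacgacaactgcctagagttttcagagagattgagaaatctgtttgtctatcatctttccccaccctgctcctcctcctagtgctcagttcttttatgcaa
Cyp8b1: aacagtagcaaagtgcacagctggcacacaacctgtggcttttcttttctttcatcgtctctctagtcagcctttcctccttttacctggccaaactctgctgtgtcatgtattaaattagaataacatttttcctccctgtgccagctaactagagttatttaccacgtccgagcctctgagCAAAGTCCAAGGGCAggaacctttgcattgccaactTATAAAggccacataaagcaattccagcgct

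Both strands were searched for CAAAGTCCA (a form of the HNF4 motif), CAAGGNCA (NR5A2, the liver receptor homologue), CTTTGAT (TCF and LEF), TGTTTAC (FOX factors) and TATAAA (the TATA box). The Cyp8b1 promoter held CAAAGTCCA at 67 to 59 bases before the start, a CAAGGNCA match at 60 to 53 that overlaps it, and TATAAA at 31 to 26. The Akr1c6 promoter held CAAGGNCA at 42 to 35 bases and TATAAA at 164 to 159. No match to these letters was found in the Hsd3b7 and Akr1d1 windows. Of 32851 promoters of the same length, 0.384% held CAAAGTCCA, 5.53% CAAGGNCA, 3.21% CTTTGAT, 3.17% TGTTTAC and 12.4% TATAAA, so the first is the least common of these.

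After filtering, 29825 nuclei remained, of which 18857 were hepatocytes by fixed markers such as Alb and Apob (5408, 4567, 5071 and 3811 in fasted 1, fasted 2, fed 1 and fed 2). Summed hepatocyte counts of unique molecular identifiers (UMIs, 1 per captured transcript) were 21024636, 19310969, 16853830 and 6783451 in that order, and the median per hepatocyte was 2928, 3239, 2547 and 1282, so fed 2 was the shallowest. Of 10 hepatocyte clusters, 8 drew over 80% of their nuclei from 1 library, so members were compared over all hepatocytes of a library and not between clusters. Fed 1 held a cluster led by acute phase genes, and its hepatocytes had 388 CPM of Saa1 against at most 12 CPM in the other 3 libraries. Fed 2 stood apart in Gm42418, a locus where ribosomal RNA reads gather, with 42199 CPM against 2133 to 8928 CPM in the others. Between 12 and 42 barcodes were shared by any 2 libraries. All 10 hepatocyte markers were detected in every library.

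All 5 members were detected in hepatocytes and also in endothelial nuclei, Cyp7a1 and Cyp8b1 at a similar scaled level in both, which bears on every level given here. Values are CPM, a gene's UMIs per 1000000 summed UMIs of the type in the library, and they are compared only within a gene because captured RNA per gene also depends on gene structure. In endothelial nuclei, which do not make bile acids, Cyp7a1 stood at 380 and 188 CPM in fasted libraries and at 129 and 109 CPM in fed libraries. Hepatocytes of the same libraries had 461, 193, 119 and 84.9 CPM, so Cyp7a1 was 0.780 to 1.21 times as high in hepatocytes as in endothelial nuclei. Alb, the serum albumin gene, was at 4891, 2427, 3730 and 1779 CPM in hepatocytes and at 2479, 1188, 1263 and 1065 CPM in endothelial nuclei.

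The ratio of hepatocyte to endothelial CPM was 0.758 to 1.28 for Cyp8b1, 0.983 to 1.68 for Akr1d1, 1.32 to 2.62 for Akr1c6 and 2.10 to 4.88 for Hsd3b7. Hsd3b7 and Akr1c6 were thus above the endothelial level in all 4 libraries, whereas Cyp7a1 and Cyp8b1 were near it. Counted per nucleus, each member was higher in hepatocytes in every library. Cyp7a1 gave 1.79 and 0.818 UMIs per hepatocyte against 0.366 and 0.208 per endothelial nucleus in fasted libraries, and 0.397 and 0.151 against 0.118 and 0.101 in fed libraries. Hepatocyte nuclei also held more UMIs in total than endothelial nuclei, whose median was 747 to 888 per library, and how much of the members' counts was free RNA was not tested.

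**Figure D1:**
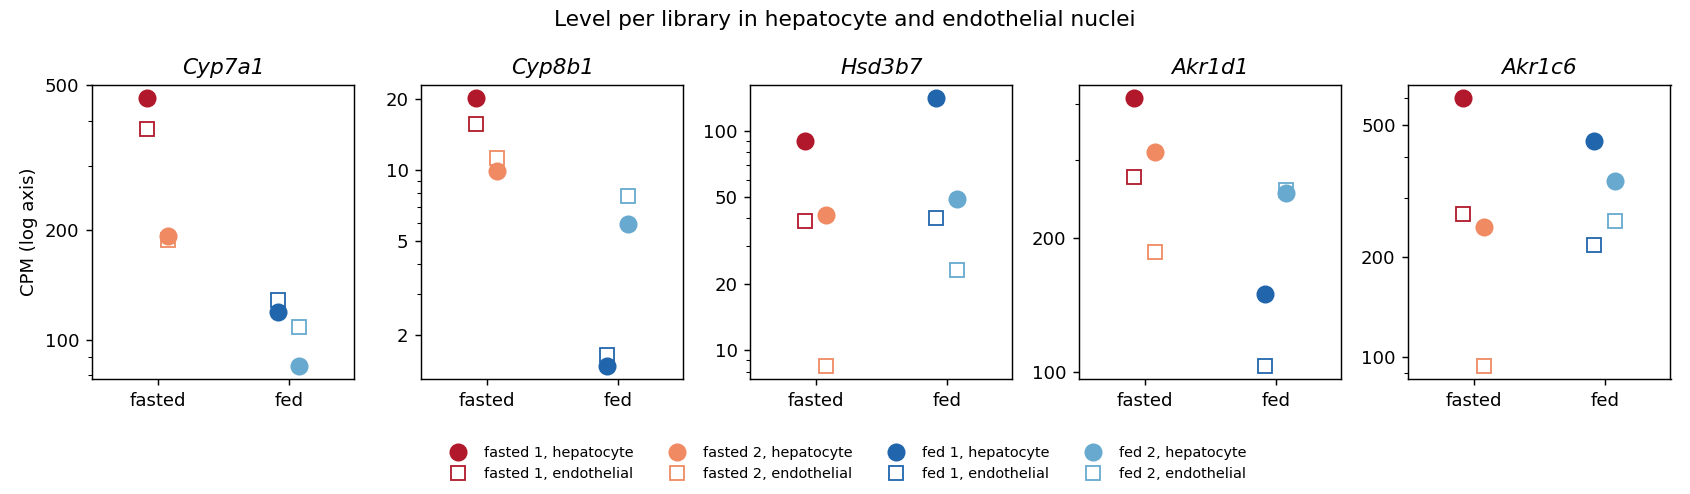
CPM on a log axis of each member in hepatocyte nuclei (filled circles) and endothelial nuclei (open squares) of the 2 fasted libraries, on the left of each panel, and the 2 fed libraries, on the right. Fasted circles lie above fed circles for Cyp7a1, Cyp8b1 and Akr1d1, the endothelial squares of Cyp7a1 and Cyp8b1 lie near the circles of the same library, and those of Hsd3b7 lie below them.

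At an equal depth of 500 UMIs per nucleus, Cyp7a1 was seen in 16.3% and 8.30% of hepatocytes against 17.9% and 11.1% of endothelial nuclei in fasted libraries, and in 5.03% and 4.49% against 6.19% and 4.35% in fed libraries. Over all hepatocytes, its share at this depth was therefore near or below that of endothelial nuclei. Equal depth does not give the amount of free RNA per nucleus, so these shares do not measure a background. The share differed with the hepatocyte's position. The position bins hold only nuclei with at least 1500 UMIs before thinning, whereas the shares above also include shallower nuclei. In fed 2 each of the 3 bins (4.39% in the middle bin) lay below the 4.49% of all hepatocytes. In the pericentral bin, the hepatocytes nearest the central vein by a position score cut into 3 equal bins, the Cyp7a1 share was 27.3% and 13.3% in fasted libraries and 7.32% and 4.01% in fed libraries. In the periportal bin, nearest the portal vein, it was 6.85% and 2.20% in fasted libraries and 2.07% and 1.15% in fed libraries, below the endothelial share in each library. Only in fasted 1 did the exact 95% interval of the pericentral share (25.1% to 29.5%) lie wholly above that of the endothelial share (16.3% to 19.5%), and intervals cover counting error only.

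Hsd3b7, Akr1d1 and Akr1c6 shares in pericentral hepatocytes stood above the endothelial ones in every library. For Akr1c6 they were 41.0% and 19.3% against 12.9% and 4.79% in fasted libraries, and 28.0% and 20.6% against 10.2% and 9.42% in fed libraries. For Hsd3b7 they were 6.79% and 2.77% against 2.03% and 0.520% in fasted libraries, and 8.28% and 2.10% against 2.67% and 1.45% in fed libraries, where the fed 2 intervals overlapped. For Akr1d1 they were 17.6% and 14.3% against 11.6% and 6.87% in fasted libraries, and 7.52% and 12.4% against 4.83% and 11.6% in fed libraries, where the fed 2 intervals overlapped too. In fasted libraries, Cyp8b1 was seen in 0.996% and 0.638% of pericentral hepatocytes and in 0.991% and 0.520% of endothelial nuclei, similar shares at this depth. Counted per nucleus, it gave 0.0784 and 0.0420 UMIs in all hepatocytes against 0.0151 and 0.0125 in endothelial nuclei of these libraries. In fed libraries these were 0.00493 and 0.0105 against 0.00151 and 0.00725 UMIs.

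**Figure D2:**
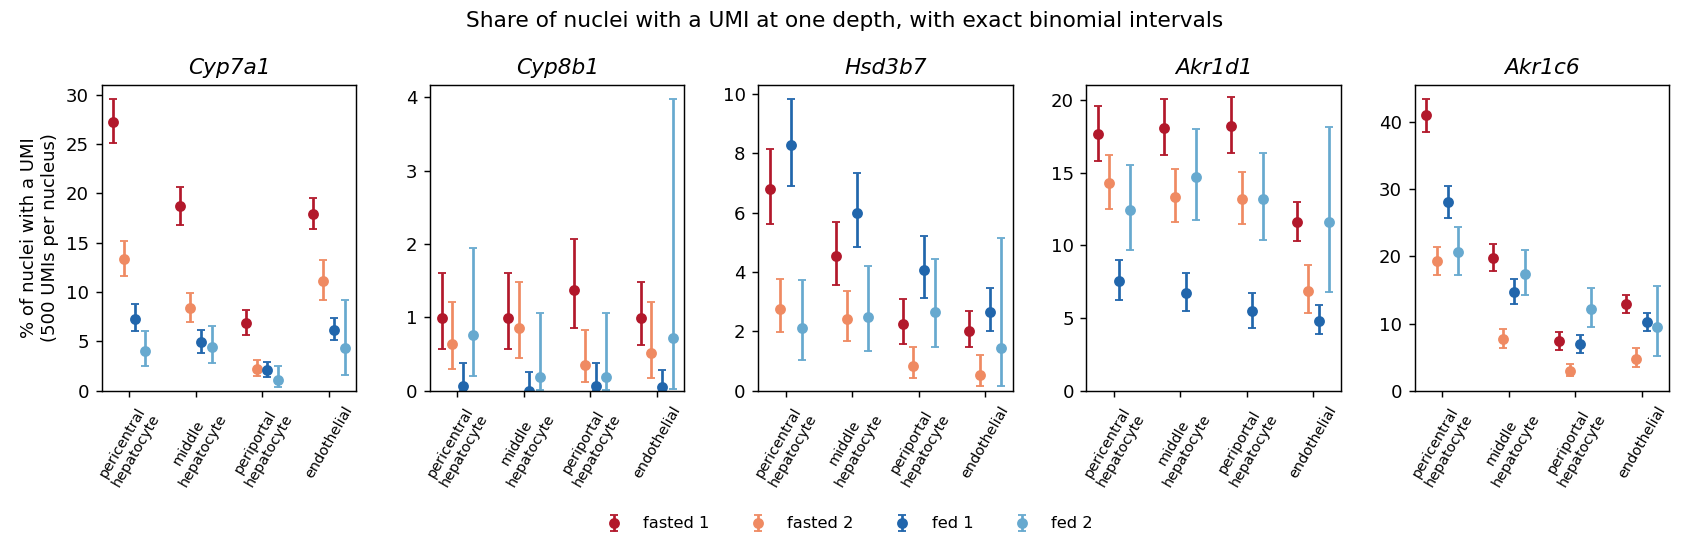
Percent of nuclei with at least 1 UMI of each member after thinning every nucleus to 500 UMIs, for hepatocytes of the pericentral, middle and periportal bin and for endothelial nuclei, with 1 point per library and bars for exact 95% binomial intervals. The hepatocyte bins hold only nuclei with at least 1500 UMIs before thinning. Akr1c6 shares step down from pericentral to middle to periportal hepatocytes in all 4 libraries. Cyp7a1 shares do so in all but fed 2 (4.01%, 4.39% and 1.15%), and so do Hsd3b7 shares (2.10%, 2.48% and 2.67% in fed 2). The order of the Akr1d1 and Cyp8b1 shares differs between libraries.

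To ask where along the lobule the members were expressed, hepatocytes were placed by a score made from 9 pericentral genes (such as Glul and Cyp2e1) and 11 periportal genes (such as Cyp2f2 and Hal), none of them a member. Nuclei with at least 1500 UMIs were scored, 4819, 4230, 4347 and 1572 in fasted 1, fasted 2, fed 1 and fed 2, and each library was cut into 3 bins of equal size, whose highest (pericentral) and lowest (periportal) were compared with the library as a block. The pathway was uneven along this axis. Cyp7a1 and Hsd3b7 were higher in pericentral hepatocytes, Akr1c6 was higher there in each library without passing the test, and Akr1d1 and Cyp8b1 did not pass. Of 11419 genes tested, edgeR's quasi-likelihood test called 16.4% (8.14% higher and 8.23% lower in pericentral hepatocytes) at an adjusted p under 0.05, and 2 of the 5 members were called, both higher. The pericentral bin was higher in 4 of 4 libraries for 4 of the 5 members, against 16.7% of all genes tested. These include Akr1d1, whose log2 ratios were only 0.002 to 0.20. The median log2 fold change was 1.17 over the members and -0.01 over all genes tested. The members were chosen with earlier results of these data known.

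Cyp7a1, the gate of the route, was at 665 and 320 CPM in pericentral bins against 176 and 34.3 CPM in periportal bins of fasted libraries. In fed libraries it was at 185 and 97.8 CPM against 45.7 and 30.9 CPM. The pericentral bin was higher in each of the 4 libraries. The log2 fold change was 2.27 (SE 0.31), with an edgeR adjusted p of 0.0210. The call depended on single libraries and settings, with an adjusted p of 0.062 without fasted 1, 0.11 without fed 1, 0.088 without fed 2, 0.065 with no filter on low counts and 0.47 without the library block.

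Cut into 5 bins from periportal to pericentral, Cyp7a1 ran 135, 283, 465, 661 and 670 CPM in fasted 1. In fasted 2 it ran 29.3, 58.7, 199, 279 and 350 CPM. Fed 1 had 41.9, 55.8, 107, 168 and 198 CPM, and fed 2 had 31.4, 29.6, 66.6, 104 and 90.9 CPM. The lowest levels were in the first 2 bins and the highest in the last 2 in each library, and in fed 2 the last bin was below the one before it.

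Hsd3b7, the enzyme of the second ring step, was higher in CPM in pericentral hepatocytes with little spread between libraries. It was at 122 and 55.7 CPM in pericentral bins against 49.9 and 22.7 CPM in periportal bins of fasted libraries, and at 190 and 60.4 CPM against 89.0 and 34.4 CPM in fed libraries. All 4 libraries went the same way, by 0.81 to 1.29 on the log2 scale. The log2 fold change was 1.17 (SE 0.08) with an edgeR adjusted p of 6.3e-08, and the call held without each library in turn. Without the library block the adjusted p was 0.96. Over 5 bins the level increased at each step in every library, for example 44.0, 63.7, 80.4, 115 and 128 CPM in fasted 1.

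Akr1c6, the ring dehydrogenase, climbed most steeply in fasted 2. Over 5 bins it ran 144, 278, 527, 784 and 1115 CPM in fasted 1, 42.6, 75.8, 184, 342 and 542 CPM in fasted 2, 139, 181, 335, 522 and 932 CPM in fed 1 and 198, 324, 393, 398 and 472 CPM in fed 2. It increased at each step in each library, and fed 2, the shallowest, had the flattest profile. By 3 bins the log2 fold change was 2.26 (SE 0.46), from 0.87 in fed 2 to 3.19 in fasted 2, and the edgeR adjusted p was 0.0708. It passed without fed 2 (adjusted p = 0.0054), with 5 bins in place of 3 (0.031) and in DESeq2 (2.8e-05).

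Akr1d1, the ring reductase, had similar levels at both ends of the lobule. Its pericentral bins were at 412 and 323 CPM against 411 and 291 CPM in periportal bins of fasted libraries, and at 156 and 257 CPM against 136 and 248 CPM in fed libraries. The log2 fold change was 0.09 (SE 0.06, edgeR adjusted p = 0.36). Cyp8b1 had few counts, 144 and 69 UMIs in pericentral against 118 and 37 UMIs in periportal bins of fasted libraries, and 9 and 6 against 10 and 13 UMIs in fed libraries. Its log2 fold change was -0.01 (SE 0.21, edgeR adjusted p = 0.99) and its direction differed between libraries, so a gradient was not detectable at this depth.

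**Figure D3:**
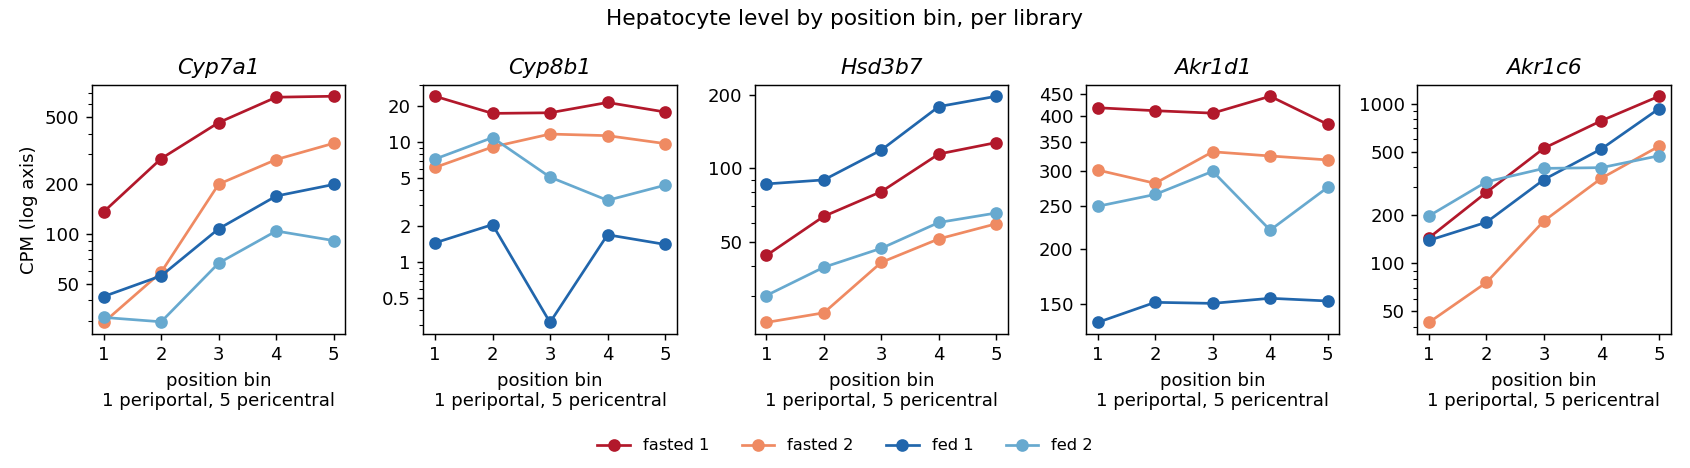
CPM on a log axis of each member in hepatocytes by position bin, from periportal (1) to pericentral (5), with 1 line per library. Hsd3b7 and Akr1c6 climb toward the central vein at each step in all 4 libraries, and Cyp7a1 does so in all but fed 2. In fed 2, Cyp7a1 also ends higher than it starts but dips at the first and last steps. Akr1d1 stays level, and Cyp8b1 rests on 1 to 102 UMIs per point.

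To ask how feeding state changed the members, hepatocyte sums of the fasted and fed libraries were compared. Cyp7a1, Cyp8b1 and Akr1d1 had both fasted values above both fed values, which held for 3 of the 5 members against 20.5% of 13993 genes tested, but none of the 5 passed the test. On simulated counts this test recovered 2% of genes changed by 1 and 27% of those changed by 2 on the log2 scale. Not passing therefore says little about whether a member changed. The edgeR test called 1 gene in all (0.00715%), with 950 genes at an unadjusted p under 0.05, and DESeq2 called 164. The median log2 fold change was 0.79 over the members and -0.01 over all genes tested.

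Cyp7a1 averaged 327 ± 189 CPM in fasted hepatocytes and 102 ± 24.4 CPM in fed hepatocytes (SD, n = 2 each). The groups did not overlap, and fasted 1 was the highest library by far. The log2 fold change was 1.64 (SE 0.46, edgeR adjusted p = 0.57). Leaving out 1 library gave 0.92 (without fasted 1) to 2.11 (without fasted 2) and no call, with adjusted p between 0.11 and 1.00, and with no filter on low counts it passed (adjusted p = 0.0038). Endothelial nuclei showed a difference in the same direction, with 284 ± 136 CPM in fasted and 119 ± 14.4 CPM in fed libraries (SD, n = 2 each). Its part in the hepatocyte difference was not tested.

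Cyp8b1 was at 20.2 and 9.94 CPM (424 and 192 UMIs) in fasted hepatocytes, against 1.48 and 5.90 CPM (25 and 40 UMIs) in fed hepatocytes. Fed 1, the library with the acute phase cluster, was the lowest. The log2 fold change was 2.00 (SE 0.78, edgeR adjusted p = 0.72), and leaving out 1 library gave 1.23 (without fed 1, adjusted p = 0.38) to 3.36 (without fed 2, adjusted p = 0.011). With no filter on low counts it also passed (adjusted p = 0.045). Endothelial nuclei had 15.7 and 11.3 CPM in fasted libraries, against 1.65 and 7.78 CPM in fed ones. The fed endothelial values rest on very few counts. At 500 UMIs per nucleus, 1 of 1988 endothelial nuclei in fed 1 and 1 of 138 in fed 2 held a Cyp8b1 UMI, so their order is uncertain.

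Akr1d1 stood at 411 and 312 CPM in fasted hepatocytes, against 150 and 252 CPM in fed hepatocytes. The groups did not overlap, and the edgeR log2 fold change was 0.79 (SE 0.39, adjusted p = 0.78). It was 0.41 without fed 1 and 1.30 without fed 2. Hsd3b7 stood at 90.1 and 41.3 CPM in fasted hepatocytes, against 141 and 48.9 CPM in fed ones, with overlapping groups and a log2 fold change of -0.55 (SE 0.57, adjusted p = 0.95). Akr1c6 stood at 599 and 246 CPM in fasted hepatocytes, against 447 and 339 CPM in fed ones, where the fed values fell between the fasted ones, and its log2 fold change was 0.06 (SE 0.45, adjusted p = 1.00). For both genes the spread within a group was as wide as the difference between groups. Without fed 1 the Hsd3b7 difference was 0.30, and without fasted 1 that of Akr1c6 was -0.68, on the log2 scale.

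Feeding was then compared within one lobule zone, and no member passed there either. The test recovered 16% of simulated log2 changes of 2 in the pericentral and 26% in the periportal bin. In the pericentral bin, Cyp7a1 stood at 665 and 320 CPM in fasted libraries, against 185 and 97.8 CPM in fed ones, a log2 fold change of 1.75 (SE 0.48, edgeR adjusted p = 0.67). Leaving out 1 library gave 1.15 to 2.21, where it passed without fed 1 (2.21, adjusted p = 3e-04) and without fed 2 (1.41, adjusted p = 0.037) and did not pass without fasted 1 (1.15, adjusted p = 1.00) or fasted 2 (2.18, adjusted p = 0.12). It also passed with no filter on low counts (adjusted p = 0.0017). Cyp8b1 had a log2 fold change of 2.59 (SE 0.71, adjusted p = 0.67), and leaving out 1 library gave 1.79 (without fed 1, adjusted p = 0.20) to 3.28 (without fed 2, adjusted p = 0.0025). It passed without fed 2 and with no filter on low counts (adjusted p = 0.029). The other 3 members stood at 0.77 for Akr1d1, 0.20 for Akr1c6 and -0.53 for Hsd3b7. Of 11900 genes tested 0.0084% were called, none of them a member, and 3 of the 5 members were higher in both fasted libraries against 20.4% of genes.

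In the periportal bin, Cyp7a1 stood at 176 and 34.3 CPM in fasted libraries, against 45.7 and 30.9 CPM in fed ones, so fasted 2 fell between the fed values. Its log2 fold change was 1.38 (SE 0.72, edgeR adjusted p = 0.82), and -0.19 without fasted 1. Cyp8b1 stood at 1.38, Akr1d1 at 0.79, Hsd3b7 at -0.82 and Akr1c6 at -0.81 on the log2 scale. No member passed, with 0.00882% of 11336 genes called, and 1 of the 5 was higher in both fasted libraries against 21% of genes.

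Whether the gradient along the lobule itself differed with feeding was tested as the difference of the position effects. No member passed in edgeR, with 0.252% of 12279 genes called. The Cyp7a1 position effect was 2.43 (SE 0.42) in fasted and 1.93 (SE 0.57) in fed libraries, a difference of 0.50 (SE 0.73, edgeR adjusted p = 0.98). Without fasted 1, which left 1 fasted library assumed to vary like the fed ones, the difference was 1.30 with an adjusted p of 6e-06, and without fasted 2 it was 0.016 with an adjusted p of 1.00. For Akr1c6 the effects were 2.74 in fasted and 1.74 in fed libraries (difference 1.00, SE 0.83, adjusted p = 0.94), and for Hsd3b7 1.29 and 1.05 (difference 0.24, SE 0.16, adjusted p = 0.85). Fed 2 had the lowest ratio of the 4 libraries for both genes. Both Hsd3b7 effects passed within their own group, where 6.64% of genes in fasted and 5.45% in fed libraries were called higher in pericentral hepatocytes. The Cyp7a1 effects did not pass within a group (edgeR adjusted p = 0.13 in fasted and 0.29 in fed), nor did those of Akr1c6 (0.17 and 0.36). Both fasted position effects were above both fed ones for 2 of the 5 members, Hsd3b7 and Cyp8b1, against 18.8% of genes. The fed Cyp8b1 ratios rest on 9 against 10 UMIs in fed 1 and 6 against 13 UMIs in fed 2.

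Nuclei were also read one by one. Thinned to 1500 UMIs, Cyp7a1 was seen in 37.3% and 18.8% of fasted hepatocytes and in 13.5% and 10.2% of fed hepatocytes. Akr1d1 was seen in 42.7% and 34.3% of fasted and 19.4% and 29.8% of fed hepatocytes, and Cyp8b1 in 3.40% and 1.84% of fasted and 0.184% and 1.08% of fed hepatocytes. Both fasted libraries were above both fed ones for these 3 genes, with the endothelial shares given above for 500 UMIs. These shares come from the same counts as the CPM values and are not a separate result. In CPM, 20.5% of genes tested had this order, and shares were not read for all genes. Hsd3b7 (12.2% and 6.29% of fasted, 17.6% and 6.30% of fed) and Akr1c6 (46.2% and 24.7% of fasted, 37.4% and 37.1% of fed) had no such order. Over all hepatocytes, those under 1500 UMIs included and with no thinning, the Cyp7a1 shares were 50.9% and 33.0% in fasted and 22.2% and 12.6% in fed hepatocytes.

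Counts of single nuclei were uneven. With all UMIs kept, the tenth of hepatocytes with most Cyp7a1 UMIs held 52.5% and 61.5% of them in fasted and 69.2% and 82.6% in fed libraries, and the highest nucleus carried 53 and 24 UMIs in fasted against 15 and 7 in fed libraries. Akr1d1 was spread more evenly, at 43.0% and 42.4% in fasted and 54.9% in each fed library. Sparse counts alone raise this share, so it is a description and not a difference between genes. At 1500 UMIs, 15.7% and 4.21% of fasted hepatocytes and 4.00% and 2.86% of fed hepatocytes had UMIs of at least 3 of the 5 members, and 19.7% and 39.6% of fasted and 39.5% and 37.9% of fed hepatocytes had none. Fasted 1 stood apart in both counts. Of the 9692 Cyp7a1 UMIs in fasted 1 hepatocytes, 6164 lay in a cluster of 1884 of its nuclei (656 CPM against 187 CPM in its largest cluster of 2548), where Akr1c6 was at 746 against 198 CPM and Akr1d1 at 432 against 405 CPM. These clusters were drawn with these genes among the rest, so the values are a description.

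The other genes of bile acid synthesis were read from a list of 15, of which 14 were tested. Along the lobule 7 passed in edgeR, 4 higher and 3 lower in pericentral hepatocytes, against 16.4% of all genes tested (8.14% higher and 8.23% lower), and the list's median log2 fold change was 0.09. Cyp27a1, the mitochondrial hydroxylase of the alternative route and of side-chain oxidation, was higher by 1.01 (SE 0.07, adjusted p = 4.1e-08), at 666 and 593 CPM in pericentral against 392 and 261 CPM in periportal bins of fasted libraries and at 426 and 313 against 203 and 150 CPM in fed libraries. Cyp39a1, which hydroxylates an oxysterol, went the other way by -1.30 (SE 0.09, adjusted p = 4.0e-08), with 87.4 and 87.8 CPM in pericentral against 174 and 232 CPM in periportal bins of fasted libraries, and 57.0 and 17.7 against 162 and 47.7 CPM in fed ones. Of the rest that passed, Cyp2c70, which makes muricholic acids in mice, was at 0.29, Amacr, a racemase of the side chain, at 0.26, and Hsd17b4, of peroxisomal side-chain oxidation, at 0.23. Baat, which conjugates bile acids, was at -0.25, and Cyp46a1, another cholesterol hydroxylase, at -1.64, although fed 2 went the opposite way for Cyp46a1. Its levels were low, at 0.70 to 5.17 CPM over the bins. Within groups, the Cyp46a1 effect passed in fasted (edgeR adjusted p = 0.014) but not in fed libraries (0.52).

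**Figure D4:**
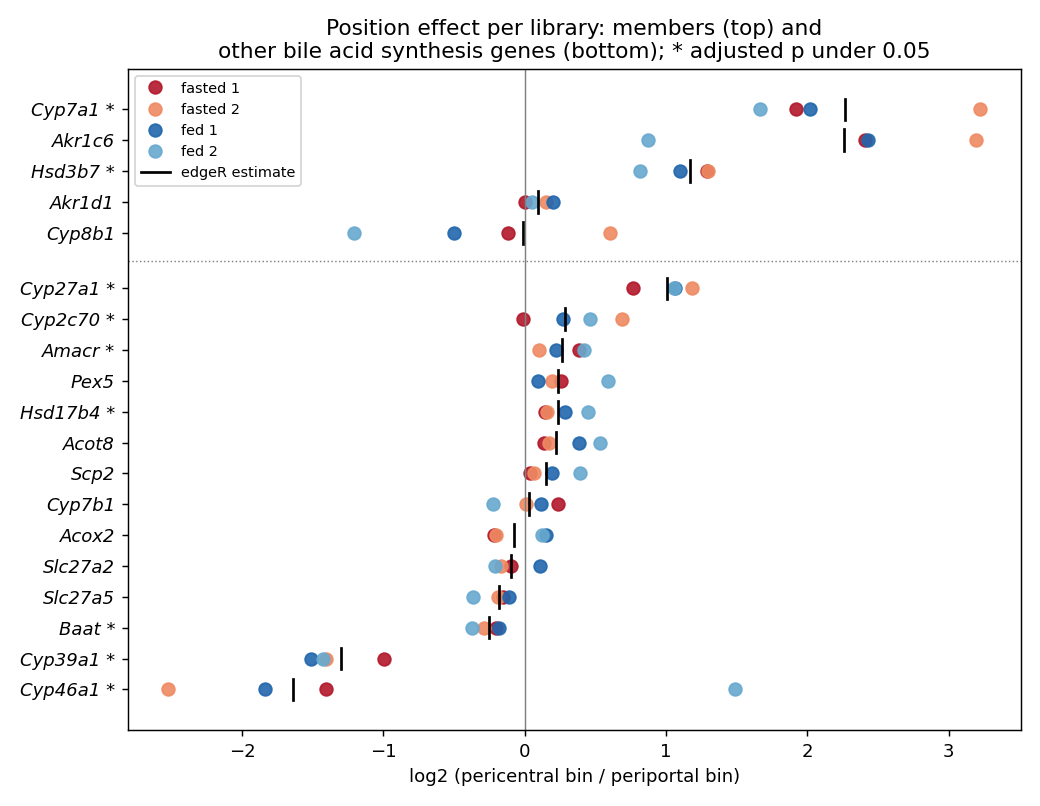
Log2 ratio of the pericentral to the periportal bin in each library (points) and the edgeR estimate (black bars) for the 5 members above the dotted line and the 14 other bile acid synthesis genes tested below it, where an asterisk marks an adjusted p under 0.05. Cyp7a1, Hsd3b7 and Cyp27a1 carry an asterisk with all 4 points right of 0, and Cyp39a1 carries one with all 4 points left of 0.

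Of 20 regulators of the pathway, all tested, 4 passed along the lobule and all 4 were lower in pericentral hepatocytes (list median -0.02), a share near the 16.4% called among all genes tested. They were Ppargc1a, a coactivator induced by fasting (log2 fold change -0.95, SE 0.08), Bhlhe40, a clock-linked repressor (-0.70, SE 0.08), Onecut1, a hepatocyte factor (-0.47, SE 0.09), and Hnf4a, a nuclear receptor that drives many hepatocyte genes (-0.20, SE 0.06). Nr5a2 and Nr1h4 did not pass. In the fasted and fed comparison of all hepatocytes, no gene of the synthesis, regulator or relative lists passed. Among the 12 listed relatives of Akr1c6 and Hsd3b7, 8 were tested along the lobule and 3 passed, against the same 16.4% of all genes. Akr1c20, an aldo-keto reductase of the Akr1c family, was higher in pericentral hepatocytes by 1.75 (SE 0.11), Akr1c14 by 0.29 (SE 0.07), and Akr1c19 stood at -0.40 (SE 0.08). Family members can share reads, so the likeness of Akr1c20 and Akr1c6 is uncertain.

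For each member, the genes with the most similar pattern over 12 sums (4 libraries by 3 bins) were taken from 7828 genes by the root mean square difference of centred log2(CPM + 1) levels, where a smaller value means more alike. These 12 points share libraries and depth, so the values are descriptions. Nearest to Akr1d1 were Ugt3a1 (0.12), Apoc4 (0.13) and Bche (0.16). Nearest to Akr1c6 were Cyp2c50 (0.29), Akr1c20 (0.39) and Notum (0.48), and nearest to Hsd3b7 were Grina (0.32), Rock2 (0.34) and Ang (0.36). Cyp7a1 had no close match, with Tomm40l at 0.67, Cyp2c37 at 0.68 and Tox at 0.70, against a median of 1.40 over all 7828 genes. Cyp8b1, on few counts, was nearest to Fam13a (0.51), Gm32624 (0.51) and Tm4sf1 (0.53). Among the members themselves, Hsd3b7 was 27th nearest to Akr1c6, and Akr1d1 was 35th nearest to Cyp8b1. These were the nearest member ranks. Seen from Hsd3b7, Akr1c6 was at rank 2242 of 7828. The remaining ranks ran from 70 (Akr1c6 seen from Cyp7a1) to 7487 (Hsd3b7 seen from Cyp8b1), so the members did not form a group by this measure.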

How the data were processed

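Per the labels' protocols, nuclei from pooled frozen livers were loaded on a 10x controller, and per the submitters' processing notes reads were processed with Cell Ranger 6.0 on mm10. The deposited values are raw UMI counts per gene and barcode. Between 13.2% and 17.0% of stored entries were 0, a step not given in the sources used here, and counting them as 1 was an alternative. The 5 genes and the other lists were chosen with earlier results of these data known.

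Barcodes were kept from 500 detected genes upward if mitochondrial UMIs made up 5% or less, and the barcodes with the highest Scrublet scores were removed (0.8% per 1000 barcodes) (scanpy 1.11.5). Leiden clusters (leidenalg 0.10.2) took a type's name from at least 3 detected markers. No cluster was named for fibroblasts or smooth muscle, or for neutrophils. The position score is the mean z-score of the pericentral minus that of the periportal landmarks on counts thinned to 1500 UMIs, and 3 listed landmarks seen in under 2% of hepatocytes of a library were left out. Scores from odd and even landmarks correlated at 0.622 to 0.706 across nuclei. Nuclei too shallow to score numbered 589, 337, 724 and 2239 in fasted 1, fasted 2, fed 1 and fed 2.

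Raw counts were summed per library and tested with edgeR 4.0.16 (quasi-likelihood F test, robust, TMM scaling, filterByExpr) in R 4.3.3, with Benjamini-Hochberg adjustment over all genes tested, a threshold of 0.05 and SE computed as the fold change in log2 divided by the square root of F. DESeq2 1.42.0 was the other tool. The scripts were tested on simulated counts. Named genes were the 5 members, listed genes past the threshold and, by likeness, the 3 nearest genes with a mean of at least 10 CPM. Total UMIs per library were 30955600, 24139311, 22924339 and 8078755.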

Additional observations from a re-analysis of the deposited data

Results flagged for a closer look

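The position effects of 2 listed genes, neither of them a member, differed between fasted and fed livers by the test of that difference, among 0.252% of 12279 genes. Nr0b2, the SHP repressor of bile acid synthesis, had a difference of -0.997 (log2, fasted minus fed, SE 0.18, edgeR adjusted p = 0.012). It was at 64.8 and 15.9 CPM in pericentral against 94.4 and 25.5 CPM in periportal bins of fasted libraries, and at 112 and 68.3 against 74.2 and 70.1 CPM in fed libraries. The 2 fasted libraries went lower toward the central vein, fed 1 went higher and fed 2 was level. Without fed 1 the difference was -0.51 (adjusted p = 0.44), and in DESeq2 it was -0.93 (adjusted p = 1.00).

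Hsd3b5, a male-typical steroid dehydrogenase of mouse liver related to Hsd3b7, had a difference of 2.18 (log2, SE 0.32, edgeR adjusted p = 8.7e-04). It was at 15.1 and 2.85 CPM in pericentral against 3.01 and 0.185 CPM in periportal bins of fasted libraries, and at 241 and 89.3 against 203 and 65.9 CPM in fed libraries. Both fasted ratios were above both fed ratios, from low fasted levels. The fasted 2 periportal value of 0.185 CPM rests on very few counts, so the fasted 2 ratio is uncertain. On sums of thinned counts the difference did not pass (edgeR adjusted p = 0.098). Without fasted 1 the difference was 3.44 (adjusted p = 0.060).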

How the results depend on the processing

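Of 383 values for single genes under other settings, 343 kept their direction and side of the threshold, 11 lost the call, 12 gained it and 17 turned in sign. The genes called on feeding in all hepatocytes were 1, and 164 in DESeq2, 273 with no low-count filter, 10 with the replicate block, 0 with stored zeros counted as 1 (where 1191 genes had an unadjusted p under 0.05) and 3 to 194 leaving out a library, highest without fed 1. In the pericentral bin they were 1, and 80 in DESeq2, 166 with no filter, 26 with the replicate block, 0 with stored zeros counted as 1 or with at least 200 genes per nucleus (821 and 680 genes at an unadjusted p under 0.05), 2 with even-numbered landmarks, 3 with thinned sums and 31 to 495 leaving out a library. In the periportal bin they were 1, and 107 in DESeq2, 189 with no filter, 147 with the replicate block, 2 with thinned sums and 3 to 405 leaving out a library. The position comparison called 1870 genes, 97 without the library block and 1306 to 1898 leaving out a library. The difference of position effects called 31 genes, 5 in DESeq2, 61 with no doublet removal, 93 with no filter, 16 with odd-numbered landmarks, 58 with stored zeros counted as 1, 1 with thinned sums and 22 to 185 leaving out a library. These counts do not say which genes.

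With the replicate block no member passed. Replicate numbers carry no stated batch and there are 2 pairs, so the numbers were not used to pair libraries. The deviations of replicate 1 from replicate 2 did correlate between fasted and fed (0.426 over 13993 genes), a hint of a shared replicate effect from the data and not from the design.

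Turned values, in log2, were all uncalled. On feeding in all hepatocytes, leaving out a library took Hsd3b7 to between -1.18 and 0.30 and Akr1c6 to between -0.68 and 0.54 (-0.68 without fasted 1, -0.06 without fed 2), and Akr1c6 was -0.014 on nuclei thinned to 1500 UMIs and -0.052 with the replicate block. In the pericentral bin leaving out a library gave Hsd3b7 -1.19 to 0.44 and Akr1c6 -0.43 to 0.63 (-0.10 without fed 2), and in the periportal bin it gave Cyp7a1 -0.19 to 2.13. The Cyp8b1 position effect was 0.070 with no doublet removal, 0.0073 with stored zeros counted as 1, and -0.28 to 0.085 leaving out a library (0.03 without fasted 1 or fed 1). The Akr1d1 difference of position effects was 0.095 with even-numbered landmarks and -0.13 to 0.051 leaving out a library (0.02 without fasted 1). Over all hepatocytes without thinning, which also brings in the nuclei under 1500 UMIs, the difference in share of nuclei between fasted and fed libraries was 4.66 percentage points for Cyp8b1 (1.99 thinned), 28.6 for Akr1d1 (13.9 thinned), 0.731 for Hsd3b7 (-2.72 thinned) and 6.83 for Akr1c6 (-1.81 thinned). The cause of these shifts was not tested. Depth limits Cyp8b1, with 25 and 40 UMIs in fed hepatocytes, and fed 2 is the shallowest library.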
